A study of Drosophila melanogaster with 20 samples.

Results

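The antibody against N6-methyladenosine (m6A) still recovered 18295 peaks from poly(A) RNA of Mettl14 mutant males, of 98715 peaks in the 5 peak lists of the study. All peaks called on the immunoprecipitated (IP) RNA of these males against their input RNA were taken, with no selection on a value. The peaks were assigned to 10086 genes, and 10078 of these genes are in the expression table of 17276 genes. The 13 peaks of the other 8 genes were kept in all counts of peaks and have no expression value.

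The study set out to find which m6A marks depend on the m6A writer. Whole adult flies, 1 to 2 days old, gave 20 libraries in 5 groups, with 2 IP and 2 input libraries each. The groups are Mettl14SK1 males, Mettl3SK2/Df males (an allele over a deficiency), HakaiSH4 males, yw males and yw females, and yw males are the control of the 3 mutants. Mettl14SK1 was described by the study as a strong or null allele because its protein was not stained in mutant discs. The RNA came from whole bodies, and the genetic background of the mutants relative to yw is not given in the sources used here. Each group has 1 peak list, in which its replicates were used together, so no value of a peak has a replicate check. How many reads lie behind a peak is not given in the files.

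The labels were checked in the input RNA, in FPKM, the number of fragments scaled to the length of the transcript and to the mapped fragments of the library. Mettl14 RNA was at 1.77 and 2.02 FPKM in the Mettl14 inputs, against 4.19 and 4.25 FPKM in yw males, and the groups did not overlap. Its log2 fold change was -0.85 (standard error 0.10) with an adjusted p of 0.0040 by limma, and a call needed a change of at least 1 on the log2 scale in either direction. Male markers were present in both Mettl14 inputs. The seminal fluid gene Acp26Aa was at 478 and 440 FPKM and the dosage compensation RNA lncRNA:roX1 at 66.8 and 51.9 FPKM. Some female markers were above the yw males without reaching female levels. The 6 female markers summed to 44.8 and 110 FPKM in Mettl14 males, against 6.45 and 9.27 FPKM in yw males and 4826 and 4709 FPKM in yw females. Of the 4 that were high enough to test, Yp3 and Cp15 passed the RNA test described further on and Yp1 and Yp2 did not. The yolk protein gene Yp3 was at 33.7 and 65.9 FPKM in Mettl14 males, against 2.44 and 3.66 FPKM in yw males and 901 and 885 FPKM in yw females. Yp1 was at 3.63 and 24.3 FPKM in Mettl14 males, against 1.33 and 1.81 FPKM in yw males. The eggshell gene Cp15 was at 4.06 and 4.22 FPKM in Mettl14 males, against 0.258 and 0.253 FPKM in yw males. The vitelline membrane gene Vm26Aa was at 0.149 and 0.103 FPKM in Mettl14 males, against 0.248 and 0.264 FPKM in yw males.

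m6A is placed on nuclear mRNA by a heterodimer of METTL3, which carries the catalytic site, and METTL14, which holds the RNA. In Drosophila the pair works with Fl(2)d, Virilizer (vir), Spenito (nito), Flacc (xio) and Hakai. The mark is read by the nuclear protein Ythdc1, which acts in splicing, and by the cytoplasmic protein Ythdf. A peak is an enrichment of antibody-bound RNA fragments over input and not a methylated base.

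Sequences are shown for 3 genes, nrv3, pum and Syx1A, because they show what the Mettl14 list holds and lacks in the 5′ UTR. These are primers that were designed for m6A-IP-qPCR. The genes lie on chromosome 2L (nrv3) and on chromosome 3R (pum and Syx1A), and each gene has at least 1 5′ UTR peak in yw males. The Mettl14 list has none in nrv3, 1 weaker 5′ UTR peak in pum and 2 weaker 5′ UTR peaks in Syx1A. All bases are written 5′ to 3′ in lower case, with no base marked.
nrv3 forward: ttttgcaccagaacagttga
nrv3 reverse: tgttgatgggcgtattgtct
pum forward: aagggtcacacttgtgattgc
pum reverse: cggacaagcgatatggaact
Syx1A forward: gctaatcgcaaaaacgcaat
Syx1A reverse: tatttggctctttcccttgg

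Most Mettl14 peaks were modest enrichments over short stretches. Their fold enrichment, the ratio of IP over input, ran from 1.06 to 147 with a median of 2.79, against a median of 3.06 in yw males. The middle range between the quartiles was 1.95 to 4.35 in the Mettl14 list and 2.07 to 4.93 in yw males. A fold enrichment of at least 10 was reached by 586 Mettl14 peaks, or 3.20%, against 1097 peaks, or 5.44%, in yw males. The false discovery rate (FDR) was at most 0.01 for 16426 Mettl14 peaks (89.8%). The median exonic length was 263 bases, against 240 bases in yw males. A peak can be joined from several exons, and 3394 Mettl14 peaks (18.6%, Wilson 95% interval 18.0% to 19.1%) were, against 23.0% of the yw male peaks. The Wilson intervals given here cover counting error over peaks or genes only, since neither are replicates.

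The list repeats itself in part. It holds 215 exact repeats of another peak, which leave 18080 distinct peaks, and 3224 peaks overlap another peak of the list. When overlapping peaks were counted once, 16586 separate loci remained. Of the peaks assigned to an exon outside the UTRs, 510 of 4365 (11.7%) were annotated to an exon of a different gene from the one the peak was assigned to, so the gene is uncertain there.

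The 3′ end of the transcript carried most of the list. The 3′ UTR held 11607 Mettl14 peaks, or 63.4% (62.7% to 64.1%), in 8176 genes. Other exons held 4365 peaks, or 23.9% (23.2% to 24.5%), in 2985 genes. The 5′ UTR held 2323 peaks, or 12.7% (12.2% to 13.2%), in 1692 genes, against 4620 peaks, or 22.9%, in 3429 genes in yw males. The 3′ UTR peaks of the 2 lists were close in number, 11607 in Mettl14 and 11403 in yw males, and in median fold enrichment, 3.09 in Mettl14 and 3.11 in yw males.

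The 5′ UTR peaks that remained in the Mettl14 list were also weaker and shorter than those of yw males. Their median fold enrichment was 2.58, with quartiles of 1.88 and 3.71, against 4.44 with quartiles of 2.48 and 7.70 in yw males. A fold enrichment of at least 5 was reached by 309 (13.3%) of the Mettl14 5′ UTR peaks, against 44.5% of those of yw males. Their median width was 420 bases, against 806 bases in yw males, and 42.6% were joined from several exons, against 55.1% in yw males. Peaks in other exons differed less, with a median fold enrichment of 2.13 in Mettl14 and 2.16 in yw males. The lists of the other mutants lay between these for the number of 5′ UTR peaks, with 3315 in Mettl3 (median fold enrichment 2.27) and 3296 in Hakai (2.98). No test stands behind these contrasts because each group has 1 list.

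The same tilt appeared when position was taken from coordinates in place of the annotation. Along the span of its gene, cut into 10 equal parts from the start, 5.12% of the Mettl14 peaks had their midpoint in the first, against 9.98% of the yw male peaks. The last held 40.3% of the Mettl14 peaks and 37.2% of the yw male peaks. The Mettl3 list had 7.04% and the Hakai list 8.07% in the first. Of the Mettl14 peaks, 871 had a midpoint outside the span of their gene and were left out of these shares.

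**Figure D1:**
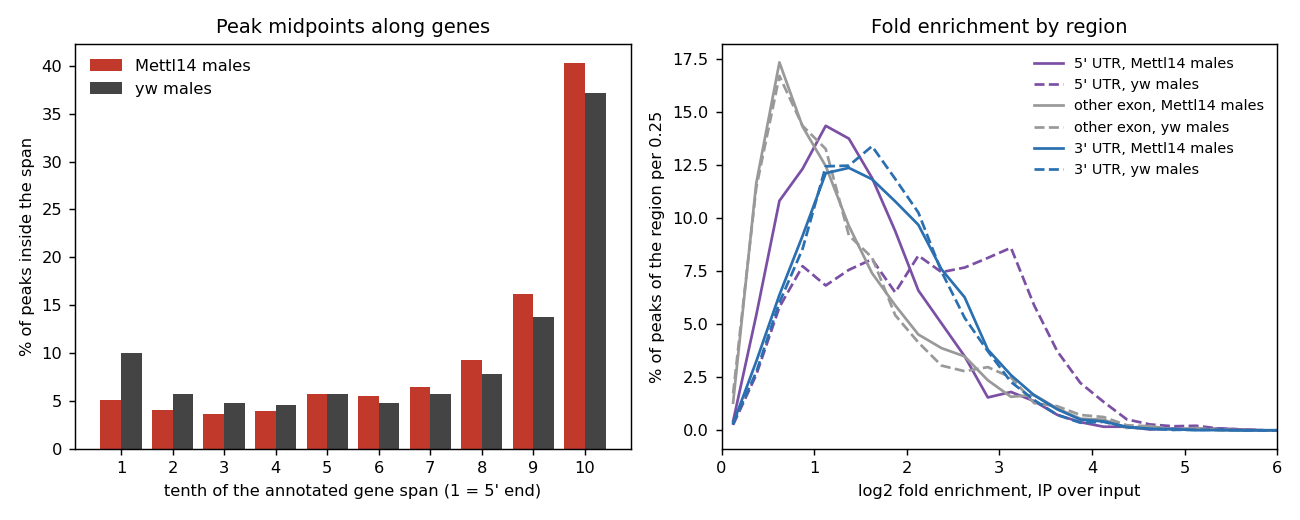
The left panel gives the percentage of the peaks of the Mettl14 and yw male lists with their midpoint in each of 10 equal parts of the gene span (5.12% of the Mettl14 and 9.98% of the yw male peaks in the first), and the right panel the percentage of the peaks of each region by log2 fold enrichment, in bins of 0.25, with Mettl14 as solid and yw males as dashed lines. The 5′ UTR lines are far apart, with a median fold enrichment of 2.58 in Mettl14 and 4.44 in yw males, while those of the 3′ UTR (3.09 and 3.11) and of other exons (2.13 and 2.16) nearly coincide.

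Genes differed in which regions carried their peaks. A 3′ UTR peak alone was the rule, in 5885 of 10078 genes (58.4%), whose median expression was 12.6 FPKM. Peaks in other exons alone were found in 1332 genes (13.2%), and these were poorly expressed, with a median of 1.93 FPKM. The 5′ UTR was the only region with a peak in 505 genes (5.01%, median 12.3 FPKM). The 5′ and 3′ UTR together carried peaks in 706 genes (7.01%) and all 3 regions in 411 genes (4.08%).

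Of the 10086 genes, 6012 (59.6%) had 1 peak, 2323 had 2 and 1751 (17.4%) had 3 or more. Counted as separate loci, 6839 genes (67.8%) had 1 and 1432 (14.2%) had 3 or more. More than 10 peaks were listed in 37 genes. The 10 genes with the most peaks spanned 26.6 to 169 kb.

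The gene mod(mdg4), which encodes chromatin proteins with many trans-spliced 3′ ends, led with 79 peaks, 66 of them assigned to the 5′ UTR. It lies on 3R from 21350846 to 21377401. These peaks overlap heavily, since they fall into 19 loci with a median fold enrichment of 1.78, and the yw male list holds 50. Its RNA was at 6.14 and 6.19 FPKM in Mettl14 males, against 4.56 and 5.23 FPKM in yw males. By loci it ranked below pros, sls, Msp300 and mamo.

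The homeodomain factor pros had 29 peaks in 27 loci, 19 of the peaks in the 3′ UTR. Its highest fold enrichment was 11.1, in another exon, and 22 of its peaks had an FDR of at most 0.01. The RNA of pros was low, at 0.654 and 0.848 FPKM in Mettl14 males, against 6.36 and 0.764 FPKM in yw males. The muscle genes among the 10 carried most of their peaks in exons outside the UTRs instead. The titin-like sls had 27 peaks, 25 of them in other exons, and its RNA was at 20.6 and 19.6 FPKM in Mettl14 males, against 24.5 and 23.3 FPKM in yw males. Msp300, a nesprin that positions nuclei, had 25 peaks with 19 in other exons, and the myosin kinase gene Strn-Mlck had 19 with 17 in other exons. The highest fold enrichment was 13.3 in both, in another exon of Msp300 but in the 5′ UTR of Strn-Mlck, whose other exons reached 9.97. The neuronal genes carried theirs mainly in the 3′ UTR. The potassium channel gene Sh had 18 peaks with 11 in the 3′ UTR, and sif, a guanine nucleotide exchange factor of synapses, had 20 with 14 there. The zinc finger gene mamo had 16 of 21 peaks in the 3′ UTR. The axon guidance factor lola, known for its many isoforms, had 18 peaks spread over other exons (8) and the 3′ UTR (9). The uncharacterized CG15465 had 20 peaks in 11 loci at 1.76 and 0.104 FPKM in Mettl14 males, against 0 and 0.126 FPKM in yw males.

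The longest peak by exonic length ran over 4200 bases of sls, in an exon outside the UTRs. Its fold enrichment was 5.59, against 3.81 in yw males. Long peaks also covered 3591 bases of zip, the non-muscle myosin heavy chain, and 3390 bases of sals, which sets the length of thin filaments in muscle. The widest span was a 5′ UTR peak of bru3, an RNA-binding protein of the Bruno family. It stretched over 113364 bases of the genome but held only 690 exonic bases, with a fold enrichment of 3.76 in Mettl14 males, against 8.29 in yw males.

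The highest 5′ UTR peaks of the Mettl14 list were shared by all other lists. CG11458, uncharacterized, had the highest fold enrichment of all, on 3L from 20905795 to 20906331. It was 147 in Mettl14 males, 226 in Mettl3 males, 326 in Hakai males and 139 in yw males. Fib, the fibrillarin of the nucleolus, had 77.0 in Mettl14 males, 258 in Mettl3 males, 178 in Hakai males and 131 in yw males. Both peaks were thus present in every male list. CG4038 had 48.7 in Mettl14 males, against 83.2 in yw males, and CG5778 had 44.6 in Mettl14 males, against 43.0 in yw males. The microtubule-associated gene futsch, on X from 1410059 to 1413672, had 42.1 in Mettl14 males, 7.30 in Mettl3 males, 7.93 in Hakai males and 42.6 in yw males. The futsch values were thus lower in the other mutants than in the Mettl14 and yw lists, though above the upper quartile of 5′ UTR peaks in Mettl3 (3.40) and Hakai (4.78). For jeb, the ligand of the receptor Alk, the value was 27.7 in Mettl14 males, 2.85 in Mettl3 males, 6.05 in Hakai males and 12.6 in yw males. CG33978 was at 32.1 in the Mettl14 list, against 5.77 in yw males. CG17108 (28.5, against 29.3 in yw males), CG14742 (23.9, against 36.0) and CG2150 (21.8, against 13.7) closed the 10. Of these 10, 5 had a lower fold enrichment in Mettl14 males than in yw males.

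The highest peaks elsewhere in the transcript did not repeat as often at that height. In other exons the first was Cpr47Ef, a cuticle protein gene, with 92.9 over 15 exonic blocks in Mettl14 males, against 84.1 in yw males. The matching peak was annotated to the 5′ UTR in yw and Mettl3 males and to the 3′ UTR in Hakai males. The noncoding lncRNA:CR43150 had 75.3 in Mettl14 males, 11.7 in Mettl3 males, 23.3 in Hakai males and 9.47 in yw males. Its RNA was at 2.51 and 2.63 FPKM in Mettl14 males, against 0.702 and 0.730 FPKM in yw males, and passed the RNA test described further on. Lasp, an actin-binding protein of muscle, had 25.5 in Mettl14 males, against 15.4 in yw males, and CG4098 had 32.1, against 3.64. In the 3′ UTR, the synaptic adhesion gene Nlg3 had 58.7 in Mettl14 males, against 15 in yw males. CG31817 had 41.0, against 1.35 in a yw male peak that was annotated to another exon, and CG17724 had 38.2, against 7.70. The testis gene h-cup had 31.0 in Mettl14 males, against 9.47 in yw males.

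Among the distinct Mettl14 peaks, 61 had a fold enrichment of at least 20. Their position was matched by a yw male peak in 52 cases, but only 13 of these matched peaks reached 20 in yw males. By region, 9 of 12 in the 5′ UTR reached it, 1 of 20 in other exons and 3 of 29 in the 3′ UTR. The peaks were chosen for their height in the Mettl14 list, so these counts are a description and no sign of a difference between the genotypes.

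Peaks were rare in genes with little RNA, and above a moderate level the share of genes with a peak no longer grew. Among 13093 genes with a mean of at least 1 FPKM in the Mettl14 inputs, 8966 had a Mettl14 peak, which is 68.5% (67.7% to 69.3%). The share was 4.78% (23 of 481) at 0 FPKM, 29.4% below 1 FPKM and 52.6% between 1 and 2 FPKM. It then lay between 71.1% and 73.5% for every bin between 5 and 200 FPKM. Above 500 FPKM it was 48.5% (94 of 194, 41.5% to 55.4%). Each input alone gave the same course, with 51.5% for input 1 and 54.6% for input 2 between 1 and 2 FPKM, and 50.3% for input 1 and 47.4% for input 2 above 500 FPKM. The inputs themselves were close, with a Pearson r of 0.980 across the 13093 genes, which are not independent replicates.

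**Figure D2:**
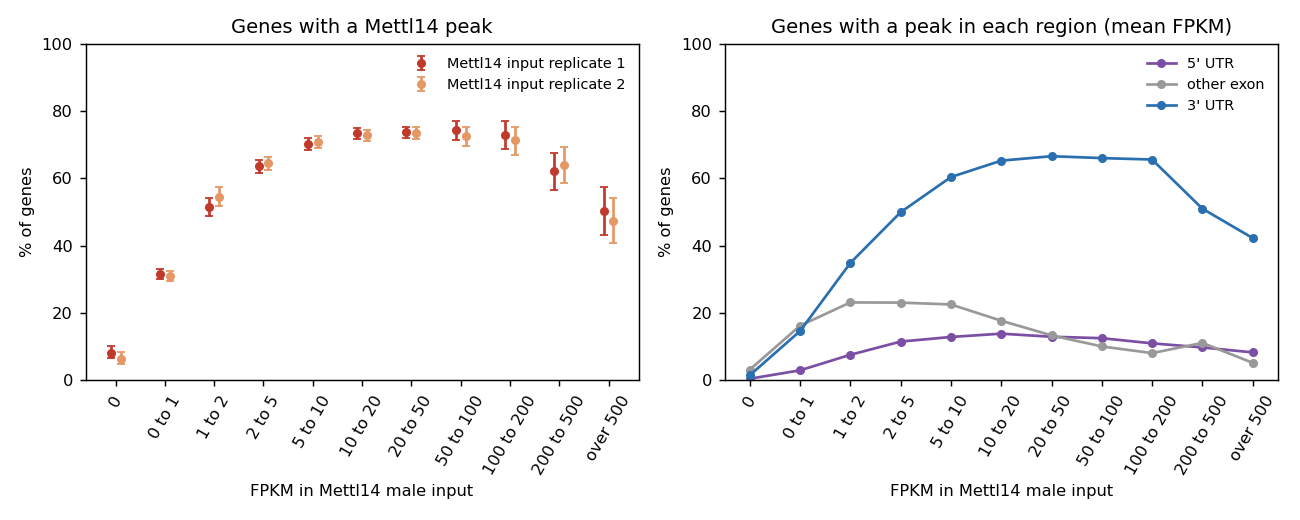
The left panel gives the percentage of genes with a Mettl14 peak in bins of FPKM, separately for each Mettl14 input, with Wilson 95% intervals, and above 500 FPKM it is 50.3% for input 1 and 47.4% for input 2. The right panel gives the percentage of genes with a peak in each region in bins of the mean FPKM, where the 3′ UTR line reaches 66.6% between 20 and 50 FPKM and other exons are highest at 23.1% between 1 and 2 FPKM.

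Which region carried the peak also moved with expression. The share of genes with a 3′ UTR peak was 34.9% between 1 and 2 FPKM and 66.6% between 20 and 50 FPKM, while the share with a peak in other exons was 23.1% between 1 and 2 FPKM and 5.15% above 500 FPKM. The highest peaks were somewhat lower in genes with more RNA. The median over genes of the log2 of the highest fold enrichment was 2.26 below 1 FPKM and 1.60 above 500 FPKM. Across the 8966 genes, Spearman's rho between a gene's highest fold enrichment and its FPKM was -0.060 (-0.141 over all 10078 genes with a peak), and between loci and FPKM -0.071. Loci followed the length of the gene more closely, with a rho of 0.494 against its span in the genome. A peak was found in 52.5% of the genes spanning under 1 kb and in 96.8% (271 of 280) of those over 50 kb. The genes over 50 kb had a median of 5.52 FPKM. These are descriptions across genes, which share the libraries and the depth.

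Below 1 FPKM, 1112 genes had a peak, with 1677 peaks in all. Of these, 23 genes were listed at 0 FPKM in both inputs and had 27 peaks.

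The most expressed genes of the fly were split. Of the 100 genes of highest FPKM, 43 had a Mettl14 peak (33.7% to 52.8%), and 20 of the 100 encode ribosomal proteins. The 10 highest without a peak included mitochondrial transcripts, neuropeptide precursors and male secretory genes. The mitochondrial transcript mt:CoIII, a cytochrome oxidase subunit, was at 15837 and 18230 FPKM and mt:CoI at 10485 and 10084 FPKM in Mettl14 males. The neuropeptide-like precursor Nplp3 was at 7120 and 9572 FPKM. The calcium-binding gene Scp1, at 3014 and 3207 FPKM, had no Mettl14 peak and 1 peak in each of the other 4 lists. The others were mt:Cyt-b, mt:CoII, Mst57Db, CG7203, Nplp2 and the accessory gland gene Acp95EF.

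The 10 highest with a peak had shallow peaks, of at most 3.29. The myosin light chain gene Mlc2 was at 4746 and 5025 FPKM and had 3 peaks with a highest fold enrichment of 2.06. Mlc1, the other myosin light chain, had 2.89 at 3044 and 2835 FPKM. The ADP/ATP carrier gene sesB had 3.29 at 2975 and 2645 FPKM. The lowest were Met75Ca with 1.20 at 4099 and 2678 FPKM, Act79B, a muscle actin, with 1.28 and CG8736 with 1.38. The remaining 4 (Cyp4g1, Met75Cb, ATPsynC and ATPsynbeta) lay between 1.53 and 2.27.

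Gene groups differed widely around the 68.5% of all expressed genes. Neuronal and developmental groups had peaks in nearly every member. Of the genes annotated to axon guidance, 160 of 170 (94.1%, 89.5% to 96.8%) had a Mettl14 peak, as did 70 of 77 (90.9%) for chemical synaptic transmission. Ion channels followed with 50 of 60 (83.3%), protein kinases with 196 of 230 (85.2%) and transcription factors with 233 of 284 (82.0%). These genes are long, with a median span of 14.8 kb for axon guidance, against 2.12 kb for all expressed genes, and length was not separated from function here. Genes of mRNA splicing had a peak in 156 of 192 cases (81.3%) with a median span of 2.33 kb.

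Receptors and channels of neurons had high peaks as well as many. The nicotinic acetylcholine receptors, which carry fast synaptic excitation in the fly brain, had peaks in 9 of 10 genes. The median of their highest fold enrichment was 7.88, against 3.48 over all expressed genes with a peak. The highest were nAChRalpha6 with 22.3 over 7 peaks, at 5.80 and 3.74 FPKM, and nAChRalpha1 with 19.9 over 6 peaks, at 2.83 and 1.82 FPKM. The lowest was nAChRalpha5 with 4.74, and nAChRbeta3 had none. Voltage-gated channels had peaks in 18 of 19 genes with 5.11 loci per gene, against 1.69 over all expressed genes with a peak. Many receptor and channel genes are long, and length was not separated from function here either. Expressed genes with a peak had 2.80 loci at a span of 10 to 50 kb and 4.74 over 50 kb. Over 50 kb the median log2 of their highest fold enrichment was 2.66. The potassium channel gene eag reached 13.4, Sh reached 12.1 and the sodium channel gene para had 8 peaks up to 9.27. NaCP60E was the lowest with 2.55 and Shaw had none. Of the 19, 13 had a 5′ UTR peak in Mettl14 males, against 17 in yw males. All 7 expressed Hox genes, which give segments their identity, had a peak, from Scr with 12.2 to abd-A with 1.84.

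Among sensory genes, those of phototransduction had peaks in 21 of 23 cases. The light-sensitive channel gene trp had a fold enrichment of 10.7 at 92.4 and 113 FPKM, and the rhodopsin gene ninaE had 9.73 at 813 and 774 FPKM. The arrestin gene Arr2 had the lowest with 1.14, and ninaA and Gbeta76C had none. Of the clock genes, 9 of 12 (46.8% to 91.1%) had a peak, which is near the share of all expressed genes, with the highest in the activators Clk (9.84) and cyc (9.09) and the lowest in per (2.42). Pdf, cry and jet had none. The 4 sodium pump genes all had 3′ UTR peaks and none in the 5′ UTR, where 3 of the 4 had a peak in yw males.

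Among muscle and germline groups, sarcomere genes had peaks in 19 of 22 cases (66.7% to 95.3%), an interval that includes the 68.5% of all expressed genes. Beside Strn-Mlck, up, a troponin T, had a fold enrichment of 12.7 at 1234 and 1683 FPKM. Act88F, fln and Act57B, all of them abundant in muscle, had none. In a list of spermatid and other male reproductive genes, 19 of 21 had peaks. The translational regulator bol had 18.1 and the sperm protein gene Mst84Da 10.6, at 799 and 677 FPKM. Of the piRNA pathway, which silences transposons in the germline, 14 of 17 expressed genes had a peak (59.0% to 93.8%). This interval also includes the share of all expressed genes. The highest of the pathway was the Piwi-family protein aub with 11.1.

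Several groups of short transcripts had a smaller share of genes with a peak. The cytosolic ribosomal proteins had peaks in 30 of 93 genes (32.3%, 23.6% to 42.3%), against 44 of 93 in the yw male list, at a median of 464 FPKM. RpL37a had the highest fold enrichment with 6.09 and RpS15 the lowest with 1.16. Mitochondrial ribosomal proteins were at 43 of 73 (58.9%, 47.4% to 69.5%), an interval that includes the 68.5% of all expressed genes, and oxidative phosphorylation at 45 of 80 (56.3%), with ATPsyndelta the highest at 17.7. Accessory gland and seminal proteins had peaks in 21 of 49 genes (42.9%), against 30 of 49 in yw males, from Sfp38D with 7.38 to Sfp53D with 1.43. Serine endopeptidases had peaks in 97 of 187 genes (51.9%) and antimicrobial peptides in 7 of 16. The proteasome, also of short genes with a median span of 1.39 kb, departed from this, with peaks in 41 of 47 genes (87.2%) and the catalytic subunit Prosbeta5 at 26.4.

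**Figure D3:**
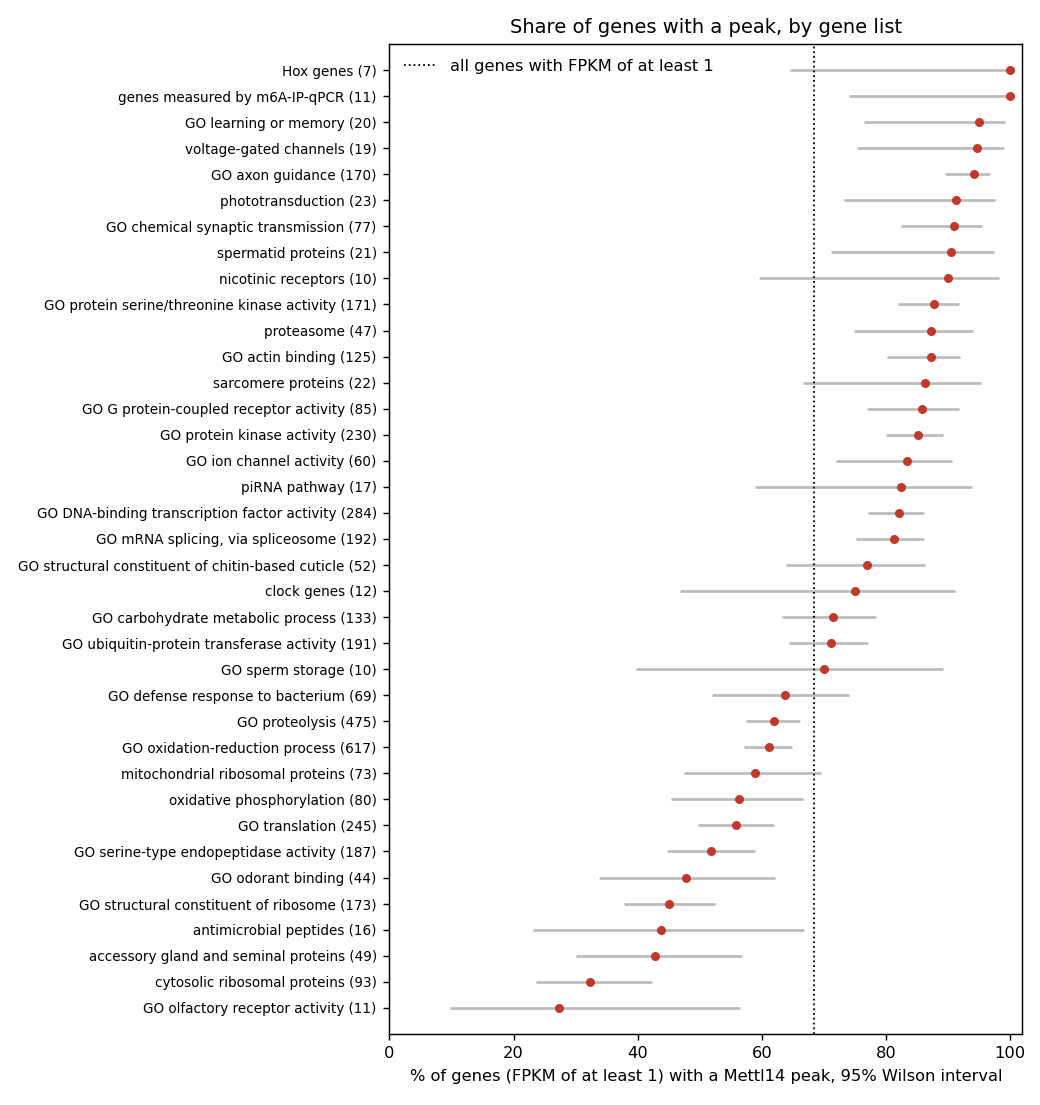
Each line is a gene list with 7 or more genes at a mean of at least 1 FPKM in the Mettl14 inputs, with that number in brackets, and the horizontal axis is the percentage of them with a Mettl14 peak, with Wilson 95% intervals. The dotted line marks 68.5% for all genes, with axon guidance at 94.1% and cytosolic ribosomal proteins at 32.3%.

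The classes of transcript differed too, among genes with a mean of at least 1 FPKM. Protein-coding genes had a peak in 7802 of 10928 cases (71.4%) and long noncoding RNAs in 413 of 744 (55.5%). Between 1 and 5 FPKM a peak was found in 51.8% of the noncoding and 66.9% of the coding genes. From 20 FPKM upwards the share was 70.5% of the noncoding and 71.9% of the coding genes, and below 1 FPKM it was 28.0% of the noncoding and 33.3% of the coding genes. Small nucleolar RNAs had a peak in 4 of 54 cases, and none of the 22 microRNA genes had one, again at a mean of at least 1 FPKM. With no limit on FPKM, the list has 26 peaks assigned to small nucleolar RNA genes and 17 to microRNA genes.

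Along the genome the shares were alike on the large arms, from 67.4% on 2R to 72.0% on X, with 70.5% on chromosome 4. The Y chromosome, present only in males, had 27 Mettl14 peaks, against 21 in yw males and 1 in yw females. They included the sperm dynein genes kl-3 (fold enrichment 21.8, against 3.43 in yw males) and kl-5 (3.88, against 2.70) and the phosphatase gene Pp1-Y2 (9.55, against 4.82). The mitochondrial genome had 1 peak, in mt:tRNA:Ile-GAT.

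Peaks were next compared between lists, where 2 peaks were matched if they shared more than 0.5 of the smaller one. Of the 18080 distinct Mettl14 peaks, 83.5% (82.9% to 84.0%) were matched in the Mettl3 list, 81.1% in the Hakai list, 78.6% (78.0% to 79.2%) in the yw male list and 69.3% in the yw female list. In the other direction, 73.4% of the Mettl3 peaks, 79.3% of the Hakai peaks, 71.3% of the yw male peaks and 60.1% of the yw female peaks were matched in the Mettl14 list. By gene, 8967 genes had a peak in both the Mettl14 and the yw male list, 88.9% of the Mettl14 genes and 86.4% of the yw male genes.

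The regions separated here. Of the Mettl14 5′ UTR peaks, 86.4% (84.9% to 87.7%) had a match in yw males, yet of the 4538 distinct 5′ UTR peaks of yw males only 43.5% had a match in Mettl14 males. The 3′ UTR was even in both directions, at 84.8% of the Mettl14 and 86.8% of the yw male peaks. Other exons were low in both, at 58.3% and 59.4%.

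A core of 9955 Mettl14 peaks (55.1%) was matched in all other 4 lists. These were longer and higher than the rest, with a median exonic length of 328 bases and a median fold enrichment of 3.22, and 71.8% of them lay in the 3′ UTR. At the other end, 893 peaks (4.94%) overlapped no peak of any other list by even a base. They were short and low, with medians of 120 bases and 2.03, 63.3% lay in other exons, and 43.6% had an FDR of at most 0.01. They fell on genes with a median of 2.83 FPKM, against 9.77 FPKM for all genes with a Mettl14 peak.

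The highest of these solitary peaks lay in CG1894, at 33.2 in the 3′ UTR, with 0.859 and 0.880 FPKM in the Mettl14 inputs. Btk29A, a Tec-family tyrosine kinase, had 27.7 in a 3′ UTR peak of 211 bases at 9.54 and 8.99 FPKM, among 7 peaks in the gene. The others lay in lncRNA:CR44727 and lncRNA:CR46206 (18.8 each) and lncRNA:CR42794 (16.6), none of which reached 2 FPKM in either input.

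Where a 5′ UTR peak was matched between Mettl14 and yw males, the median fold enrichment was lower in Mettl14 males. Over 1396 pairs, each peak with a single partner, it was 2.77 in Mettl14 males and 4.57 in yw males. The median log2 ratio of Mettl14 over yw was -0.41 (rank interval -0.48 to -0.34), and 946 pairs (67.8%) were lower in Mettl14 males. A ratio of 0.5 or less was found for 466 pairs (33.4%). When a match had to cover at least 0.5 of both peaks, the median was -0.13. The other regions were near 0, with 0.08 over 1970 pairs in other exons and 0.03 over 9004 pairs in the 3′ UTR. Set against the other mutants, Mettl14 5′ UTR peaks had a median log2 ratio of -0.06 to Mettl3 (1587 pairs) and -0.14 to Hakai (1489 pairs).

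Both ends of the same transcript were then compared within each list. There were 679 genes with a 5′ and a 3′ UTR peak in each of the 4 male lists. Their median log2 ratio of the highest 5′ over the highest 3′ UTR fold enrichment was -0.64 in Mettl14 males (-0.74 to -0.53), -0.38 in Mettl3 males, -0.20 in Hakai males and 0.40 in yw males. The 5′ peak was the higher one in 24.7% of the genes in Mettl14 males, against 64.2% in yw males. The ratio was lower in Mettl14 than in yw males for 527 of the 679 genes (77.6%, 74.3% to 80.6%). The direction of the median thus differed between the Mettl14 and the yw list in the same genes. Limited to peaks with an FDR of 0.01 or less, 630 genes gave medians of -0.64 in Mettl14 and 0.39 in yw males. In the 1117 genes with both peaks in the Mettl14 list, whatever the other lists held, it was again -0.64.

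**Figure D4:**
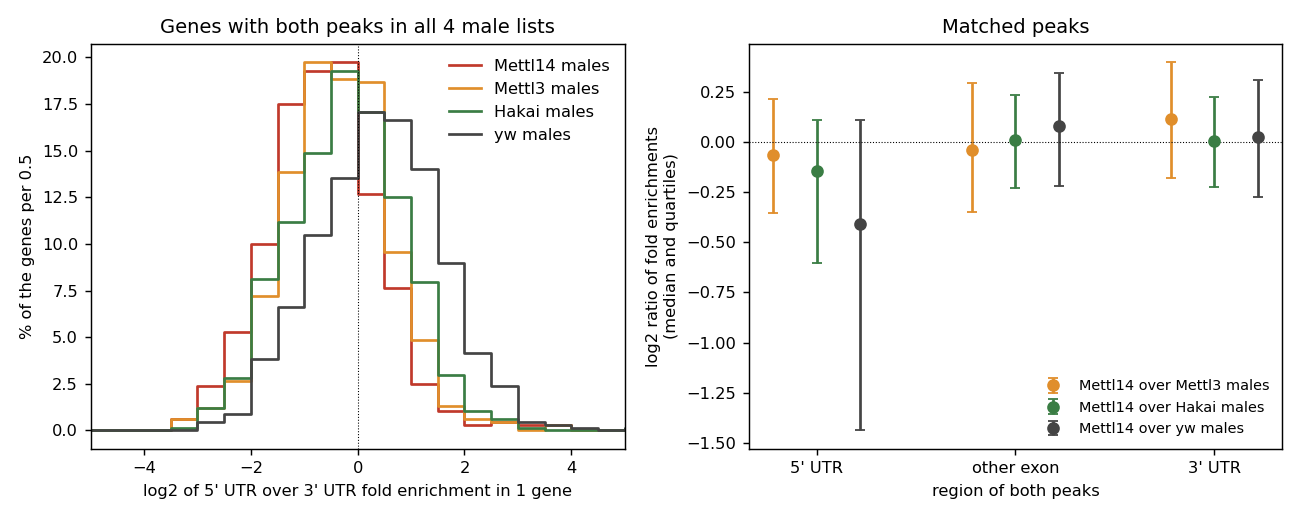
The left panel is the distribution of the log2 ratio of 5′ over 3′ UTR fold enrichment, in bins of 0.5, for the 679 genes with both peaks in all 4 male lists, with medians of -0.64 in Mettl14, -0.38 in Mettl3, -0.20 in Hakai and 0.40 in yw males. The right panel gives the log2 ratio of Mettl14 over each other male list for matched peaks by region, with points at the median and bars from the lower to the upper quartile, and the 5′ UTR point against yw males (-0.41) is the furthest from 0.

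The writer and reader genes themselves all had peaks in the Mettl14 list. Mettl14 (2L, 8308427 to 8309961) had 2 overlapping 3′ UTR peaks of 4.24 and 2.86, against a highest value of 3.26 in yw males. The peak of 4.24 runs from 8309876 to 8310236, so most of it lies past the annotated end of the gene. Mettl3 had a 3′ UTR peak of 7.52, against 6.77 in yw males. The readers Ythdc1 and Ythdf had 6.35 and 5.23 in Mettl14 males, against 11.3 and 6.0 in yw males, all in the 3′ UTR. Of the auxiliary subunits, fl(2)d, which also regulates Sxl splicing, had a 5′ UTR peak of 1.33 in Mettl14 males, against 8.30 in yw males. The 5′ UTR peak of Hakai was at 1.93 in Mettl14 males, against 3.01 in yw males, and that of xio went the other way, at 2.20 in Mettl14 males, against 1.60 in yw males. These were the 3 subunits with a 5′ UTR peak, in the Mettl14 and in the yw list alike. In the 3′ UTR, vir had 1.57 in Mettl14 males, against 3.50 in yw males, and nito 3.84, against 3.94. The values were 3.94, against 7.54, for xio and 4.14, against 2.58, for Hakai. No RNA of the catalytic pair, the 5 auxiliary subunits and the 2 readers passed the test between Mettl14 and yw males, and at an unadjusted p under 0.05 the limma test had 2 genes, Mettl14 (lower) and Mettl3 (higher).

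A set of 11 genes had been measured by m6A-IP-qPCR to check the reduction of 5′ UTR peaks in a writer mutant. They were chosen on these samples, so fewer 5′ UTR peaks in the mutants were part of the choice. Their counts are a description. All 11 had a 5′ UTR peak in yw males, 8 in Hakai males, 6 in Mettl3 males and 3 in Mettl14 males. The 3 were Syx1A, a SNARE protein of synaptic vesicle release, pum, a translational repressor, and fl(2)d. Syx1A had 2.56 in Mettl14 males, against 7.80 in yw males. For pum the highest values were 2.17 in Mettl14 males and 13.6 in yw males, at different positions. The Mettl14 peak of pum was matched by a yw peak of 10.7, and the yw peak of 13.6 had no match. In the 3′ UTR, 9 of the 11 had a Mettl14 peak, against 11 in yw males. The casein kinase gene gish had a 3′ UTR value of 7.74 in Mettl14 males, against 6.62 in yw males, and Atpalpha, the sodium pump subunit, had 3.97, against 4.04.

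For nrv3, a beta subunit of the sodium pump, the Mettl14 list has 3 peaks in the 3′ UTR and none in the 5′ UTR, against a 5′ UTR peak of 6.87 in yw males on 2L from 21380180 to 21384534. The 3 Mettl14 peaks run from 21390080 to 21390770 (3.57), from 21390890 to 21391219 (2.45) and from 21393169 to 21393319 (3.74). The RNA was at 130 and 91.9 FPKM in Mettl14 males, against 132 and 107 FPKM in yw males, so the groups overlapped. The kinase gene S6k, which promotes growth, lacked a 5′ UTR peak in Mettl14 males, against 7.68 in yw males, and had a 3′ UTR value of 6.52, against 8.21. The yw 5′ UTR peak of the antizyme gene Oda, at 1.71, lies under a Mettl14 peak that is assigned to SmD3.

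Of the 5 genes whose splicing the study followed, which it took from earlier work on m6A, 1 had a 5′ UTR peak in Mettl14 males, 2 in Mettl3 males, 4 in Hakai males and 5 in yw males. The sex-determination gene Sxl had no 5′ UTR peak in Mettl14 males, against 5.33 in yw males. Its highest 3′ UTR value was 11.3 in Mettl14 males, against 10.7 in yw males. The yw peak of 10.7 spans that Mettl14 peak and another of 4.42, and the latter was its match. Aldh-III, an aldehyde dehydrogenase, lacked the 5′ UTR peak (7.33 in yw males) and had 3.89 in the 3′ UTR, against 3.69. The HMG-box gene Dsp1 had 1 Mettl14 peak, in another exon, at 2.37. It was the match of the yw male 5′ UTR peak of 9.29, so overlapping peaks carry different region labels here.

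**Figure D5:**
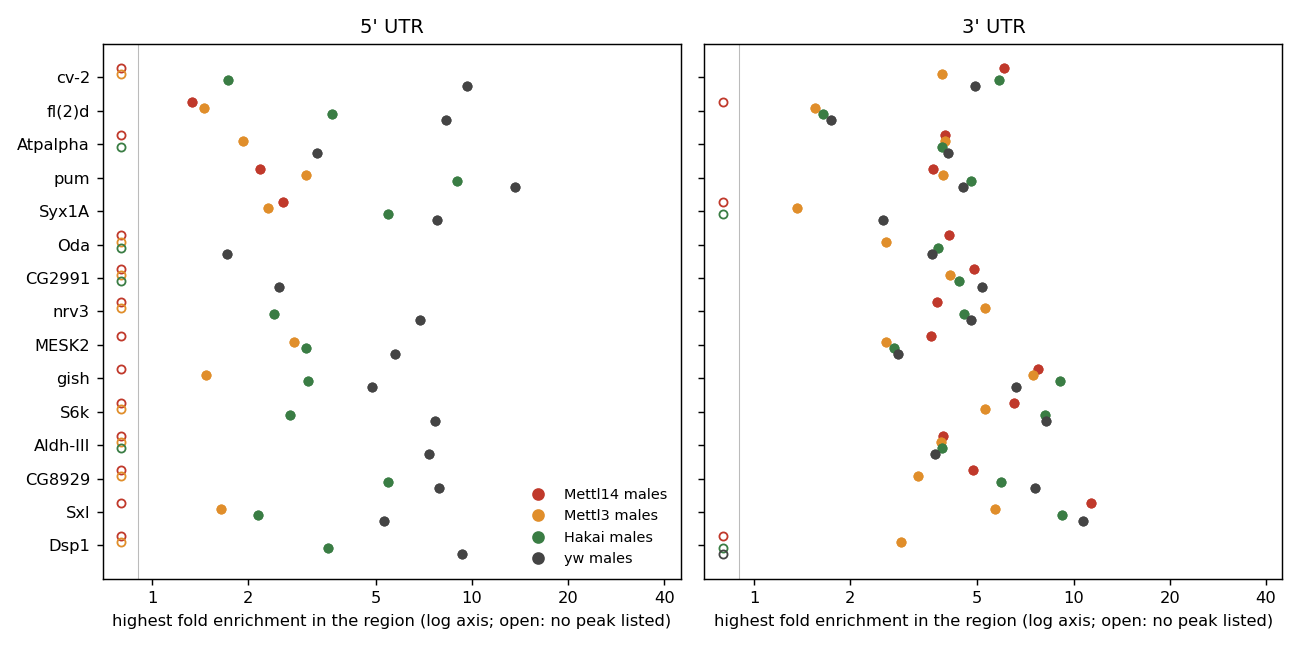
For the genes the study measured by m6A-IP-qPCR or for splicing, the left panel gives the highest fold enrichment of a 5′ UTR peak and the right panel that of a 3′ UTR peak, for each male list on a log axis, and open circles mean that no peak is listed. In the 5′ UTR, Mettl14 points are absent or below the yw points (pum 2.17, against 13.6), while in the 3′ UTR they lie on both sides of the yw points (Sxl 11.3, against 10.7, and S6k 6.52, against 8.21) or are absent for fl(2)d, Syx1A and Dsp1. The m6A-IP-qPCR genes were measured by the study to check a reduced 5′ UTR peak, so their lower 5′ UTR points are part of the choice.

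RNA levels were then compared between the 2 Mettl14 and the 2 yw male inputs, to see whether genes with a Mettl14 peak differ in expression. Of 13079 genes tested with limma on log2(FPKM + 1), 389 (2.97%) were higher and 139 (1.06%) lower in Mettl14 males, at an adjusted p under 0.05 and with the same limit of 1 on the log2 scale. In whole flies, fewer cells of a type and less RNA per cell cannot be told apart. The median log2 fold change of all genes was 0.11. With equal medians of all libraries it was -0.02, and the calls were 305 higher and 180 lower, so that 62.9% of the calls were higher in place of 73.7%. Peaks and RNA levels share the Mettl14 inputs, since the input is the denominator of the fold enrichment, and the counts below are a description.

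Genes with a Mettl14 peak took 293 of the 528 calls. Of 8957 tested, 221 (2.47%) were higher and 72 (0.804%) lower, with a median log2 fold change of 0.10. Genes without a Mettl14 peak had 168 higher (4.08%) and 67 lower (1.63%) of 4122, with a median of 0.14. The 1571 genes with a Mettl14 5′ UTR peak had 19 higher and 8 lower, with a median of 0.05. Those with 5 or more loci had 2 higher and 2 lower of 415. The 1911 genes with a 5′ UTR peak in yw males and none in Mettl14 males had 30 higher (1.57%) and 14 lower, with a median of 0.06, against 0.11 for all genes. A Mettl14 peak with no yw male peak in the gene went with 74 higher (10.3%) and 10 lower of 721. In the opposite case, a yw male peak with no Mettl14 peak in the gene, 40 were higher (3.82%) and 26 lower (2.49%) of 1046. Peaks were found more often in genes with more RNA, so these last sets are partly chosen by the RNA level itself. Their shares of calls are therefore no sign that a peak goes with a change in RNA.

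RNA calls were frequent among the antimicrobial peptides and the serine endopeptidases. Of 16 antimicrobial peptide genes tested, 10 were higher and 1 lower, and 5 of the 7 with a Mettl14 peak were higher. With the 4 libraries of the comparison fitted alone, 6 of the 16 were higher and 1 lower. The cecropin gene CecA2 was at 17.4 and 20.9 FPKM in Mettl14 males, against 0.322 and 0 FPKM in yw males. The groups did not overlap, and the log2 fold change was 4.13 (standard error 0.19, adjusted p = 0.00011 by limma). The attacin genes AttA and AttB and the diptericin gene DptA had log2 fold changes of 1.99, 2.24 and 2.25. CecA1 was at 57.2 and 46.8 FPKM in Mettl14 males, against 23.8 and 11.3 FPKM in yw males (log2 fold change 1.59, adjusted p = 0.028 by limma). Its adjusted p was 0.13 without Mettl14 replicate 1 and 0.088 without Mettl14 replicate 2, so its call rests on both libraries. Serine endopeptidases had 41 higher and 3 lower of 189, with 16 higher and 0 lower of the 96 with a peak. The 41 became 26 without Mettl14 replicate 2 and 27 without yw replicate 2. The protease gene Jon99Ciii, expressed in the gut, was at 141 and 239 FPKM in Mettl14 males, against 8.10 and 6.52 FPKM in yw males. Its peak was shallow, with a fold enrichment of 1.46. Yp3, given above with the female markers, was itself among the peak genes called higher (log2 fold change 3.59). The part of female tissue or female RNA in these results was not tested.

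Several of the peak genes furthest lower had nearly no RNA in Mettl14 males. CR33319 was at 0 and 0.0863 FPKM, against 74.7 and 91.4 FPKM in yw males, with a peak of 1.76. Ugt35b, a glycosyltransferase gene, was at 0.504 and 0.614 FPKM, against 40.2 and 46.1 FPKM, and Cyp6w1, a cytochrome P450 gene, at 1.06 and 0.945 FPKM, against 19.1 and 19.3 FPKM. Among those higher, Fst, a cold-induced gene, was at 31.2 and 25.9 FPKM, against 1.57 and 1.67 FPKM. Of the genes measured by m6A-IP-qPCR, MESK2 was the 1 called, with 24.3 and 25.0 FPKM in Mettl14 males, against 56.5 and 45.3 FPKM in yw males. Its log2 fold change was -1.01, and the call was lost without Mettl14 replicate 1 (-0.99) and without yw replicate 1 (-0.85). Of the phototransduction genes, the scavenger receptor gene ninaD was lower, at 29.4 and 31.2 FPKM, against 65.8 and 72.0 FPKM.

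Several groups in which most genes had a Mettl14 peak held no RNA call, while 4.04% of all genes tested were called. At that share the smaller groups would hold few calls or none, so their lack of calls says little. None of the tested genes of axon guidance (171), chemical synaptic transmission (77), ion channel activity (59), protein kinase activity (230), nicotinic receptors (10), voltage-gated channels (19), sarcomere proteins (22) or sodium pump (4) passed the limma test. At an unadjusted p under 0.05, 13 higher and 10 lower genes of axon guidance, 31 higher and 12 lower protein kinases and 8 lower sarcomere genes did. The median log2 fold changes of these groups lay between -0.30 and 0.07. The 93 cytosolic ribosomal proteins, poor in peaks, had none either, with 6 higher at an unadjusted p under 0.05 and a median of 0.25. The share of all tested genes at an unadjusted p under 0.05 is not given here. The counts at that limit therefore have no background beside them and are no sign of a change in these groups.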

How the data were processed

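m6A immunoprecipitation sequencing (MeRIP-seq) of fragmented poly(A) RNA was analysed from the deposited peak lists and expression table. Reads were cleaned by the authors (fastp), aligned (HISAT2) and passed to exomePeak, which called peaks on both replicates of a group together. The authors annotated peaks with ChIPseeker and estimated FPKM of the input libraries with StringTie. Fold enrichment is deposited as a linear ratio of IP over input. The deposited p-value is exomePeak's, and its log10 p and FDR columns are scores at or below 0. The deposited FPKM values carry no further normalization that the sources used here state. No read counts are given, so depth per library and its effect on weak peaks are unknown. Coordinates are 1-based in Release 6 of the genome: of 16165 genes matched by symbol to RefSeq, 16065 (99.4%) had identical ends.

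Groups follow the labels, and 0 columns were left without a sample. Peaks were summarised in Python 3.11.15 (numpy 2.4.6, pandas 2.3.3, scipy 1.17.1, statsmodels 0.14.6, matplotlib 3.10.9). Repeated peaks were kept in counts of the list and removed before lists were matched by outer coordinates. Expression was tested with limma 3.58.1 in R 4.3.3 (lmFit, eBayes with trend) on log2(FPKM + 1), with all 8 male inputs fitted together, for genes with a mean of at least 1 FPKM, with Benjamini-Hochberg adjustment over all of them. Fold changes are on that scale and understate changes of low genes. Nothing in the sources used here says that replicates are separate cultures of flies, so p-values measure only the spread between these samples. The steps were tested on simulated data.

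Named genes are those with most peaks, the highest peaks by region, the highest FPKM with and without a peak, the highest peaks found in no other list, the writers, readers and genes of the study, and the extremes of other gene lists. A gene among the highest 3′ UTR peaks is not reported here. Genes furthest changed in RNA were named after their values were seen. Members and lists were chosen with earlier results of these data known. Alternatives changed the overlap rule, the FDR and FPKM filters, the pseudocount, the scaling, the libraries and the block. No genome was used here, so motifs in peaks were not analysed.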

Additional observations from a re-analysis of the deposited data

How the results depend on the processing

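The 5′ UTR share of 12.7% was 10.9% when the midpoint had to lie in the first 25% of the gene span and 12.2% with overlapping peaks counted once. The share of genes with a peak, 68.5%, was 66.3% under the FDR limit of 0.01, 71.9% from 5 FPKM and 58.3% with no filter, and 68.4% to 68.6% with 1 input library left out. Of the Mettl14 peaks, any overlap matched 85.8% in Mettl3, 83.3% in Hakai, 81.1% in yw males and 72.0% in yw females, and at least 0.5 of both peaks matched 68.7%, 67.2%, 60.4% and 47.1% in the same order. Peaks at an FDR of at most 0.01 matched 89.2%, 86.3%, 83.4% and 73.1%, and partners of the same gene 82.0%, 79.5%, 76.6% and 66.6%. Overlap of exonic blocks gave 77.8% in yw males and 67.1% in yw females. The matched 5′ UTR ratio was -0.13 with at least 0.5 of both peaks. Counting overlapping peaks once, removing repeats, requiring the same gene and the FDR limit within genes were chosen after seeing the data. The cause of these shifts was not tested.

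From 5 FPKM, 224 genes were higher and 81 lower, as fewer genes were tested. Leaving out 1 library gave 298 to 374 higher and 133 to 162 lower genes (170 to 223 and 64 to 84 with a Mettl14 peak). Deviations of same-numbered libraries correlated at 0.50 between Mettl14 and yw, 0.67 between Mettl14 and Hakai and 0.46 between Hakai and yw, but at 0.01 to 0.06 for Mettl3. Since the Mettl3 libraries did not follow and the labels name no shared batch, the numbers were not taken as pairs. With a replicate block 430 genes were higher and 151 lower (243 and 77 with a peak). Of 15 genes whose RNA is named, 4 changed their call in any alternative and none its direction: CecA1 and MESK2 as given, lncRNA:CR43150 with equal medians (log2 fold change 0.92) and Mettl14 with a pseudocount of 0.1 (-1.12). CecA1 also lost its call with 4 libraries alone (adjusted p = 0.10 by limma). The motif analysis and its alternatives were not run, because no genome was used here. With no depth, weak peaks cannot be told from noise.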

Other observations

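Other gene groups with a Mettl14 peak lay on both sides of the 68.5% of all genes from 1 FPKM. Genes of learning or memory had a peak in 19 of 20 cases and actin-binding genes in 109 of 125, and G protein-coupled receptors had one in 73 of 85, at a median of 2.88 FPKM. Cuticle proteins had one in 40 of 52 cases, carbohydrate metabolism in 95 of 133 and ubiquitin transfer in 136 of 191. Odorant-binding genes had one in 21 of 44 and olfactory receptors in 3 of 11. A gene had a Mettl14 peak but none in the yw male list in 1119 cases, with a median of 2.80 FPKM in Mettl14 males, against 1.98 FPKM in yw males. Since peaks were found more often in genes with more RNA, these medians are a description only. Of the genes with a Mettl14 peak, 232 (2.30%) had a peak in no other list, and 8262 (81.9%) had one in each of the other 3 male lists.

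The single mitochondrial peak, in mt:tRNA:Ile-GAT, had a fold enrichment of 10.8 in Mettl14 males, 4.65 in Mettl3 males, 11.2 in Hakai males and 9.14 in yw males. Its RNA was at 38.0 and 12.9 FPKM in Mettl14 males, against 3.58 and 2.54 FPKM in yw males.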
